A study of Homo sapiens with 4 samples.

Results

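The genes described here are the 10 main heat shock proteins of the cytosol and the mitochondrial matrix. They are HSP90AA1, HSP90AB1, HSPA1A, HSPA1B, HSPA8, HSPB1, HSPH1, DNAJB1, HSPD1 and HSPE1, chosen by name for their function. Earlier results of these data were known when they were chosen. All 10 were found among the 17215 genes of the deposited table, and all 10 were among the 13674 genes with enough reads to be tested. They were compared between Cal51, a human breast cancer cell line described as triple-negative, and Cal51R, its doxorubicin-resistant counterpart, with 2 RNA libraries for each line. Doxorubicin is an anthracycline that traps topoisomerase II on DNA. The sample labels give neither the dose or time of selection, nor whether Cal51R is 1 clone or a mixed population, nor whether drug was present at harvest, and they name no other treatment in either line. Separate cultures are not mentioned for the 2 libraries of either line, so the p-values refer to library-to-library spread alone, part or all of which may be technical.

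Heat shock proteins bind unfolded or partly folded proteins and keep them from aggregating while they fold, refold or are handed to the degradation machinery. In the cytosol a J-domain protein delivers a client to HSP70, an HSP110 protein exchanges the nucleotide that holds it there, and HSP90 takes over late folding of kinases and steroid receptors, while small heat shock proteins hold clients without using ATP. In the mitochondrial matrix the HSP60 ring and its HSP10 lid enclose imported proteins. Many of these genes are switched on by heat shock factor 1, HSF1, which as a trimer binds alternating repeats of the letters GAA and TTC, the heat shock element.

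Of the 10 genes, 8 fell and 2 rose in Cal51R by edgeR's quasi-likelihood test with Benjamini-Hochberg adjustment over all tested genes (adjusted p under 0.05). Across all tested genes 35.5% fell and 35.3% rose, 70.8% in all, so that passing the test was common in this comparison. The median fold change of the 10 genes was -0.91 on the log2 scale, against 0.02 for all tested genes. At least 2-fold decreases were found for HSPA8, HSPA1A, HSPH1 and HSPD1, and an at least 2-fold increase for HSPB1, where 9.87% of all tested genes fell and 13.7% rose by that much. For all 10 genes both Cal51R libraries lay on the same side of both Cal51 libraries in CPM (reads per 1000000, scaled as described with the processing), 8 below and 2 above. The same was true of 42% of all tested genes below and of 43.1% above. Since RNA was taken from bulk cultures, fewer cells with a transcript and less of it per cell cannot be told apart.

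**Figure D1:**
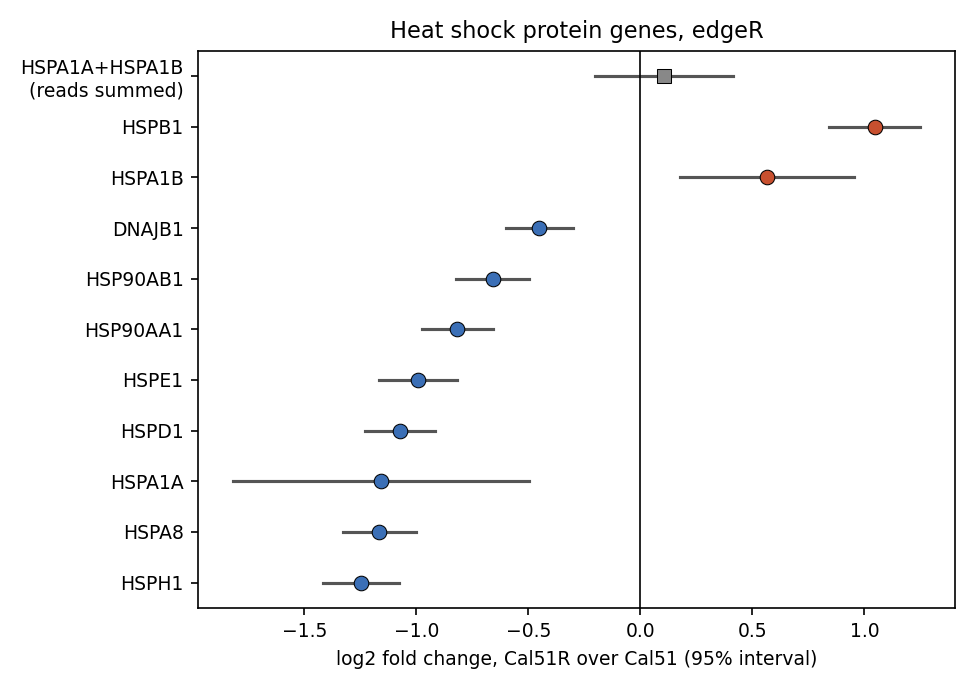
Log2 fold change (Cal51R over Cal51) of the 10 heat shock protein genes by edgeR's quasi-likelihood test, with 95% confidence intervals as bars. HSPB1 at 1.05 and HSPA1B at 0.56 lie to the right of 0, and the other 8 lie to the left, from -0.45 for DNAJB1 to -1.25 for HSPH1.

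The libraries held 17852379 to 21636996 estimated reads, and 3 reads, taken as the detection limit, came to 0.139 to 0.168 CPM. Libraries of the same line correlated at 0.994 in log2 CPM across genes. TMM scaling factors ran from 0.927 to 0.939 in Cal51 and from 1.06 to 1.09 in Cal51R, and scaling by library totals alone moved the median fold change by 0.20 on the log2 scale. Of the receptors that define triple-negative, ERBB2 averaged 170.9 CPM in Cal51 and 158.3 CPM in Cal51R, and ESR1 1.34 and 2.17 CPM. Neither passed the test, and PGR was not found in the deposited table.

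Many cell type markers differed between the lines too, several by more than the heat shock genes. Of 8 simple epithelial markers 3 rose and 3 fell, and their summed level was 12567 and 14341 CPM in the Cal51 libraries and 6973 and 5824 CPM in those of Cal51R. KRT8, the most abundant, was 2.16-fold lower in Cal51R, KRT18 2.08-fold and EPCAM 2.37-fold lower, while KRT19 was 23.4-fold higher, and the E-cadherin gene CDH1 was low in both lines, at 1.11 and 2.34 CPM. Of 9 fibroblast and mesenchymal markers 6 were tested, of which 1 rose and 5 fell, and their sum went from 2239 and 2140 CPM to 744.0 and 733.5 CPM. COL1A2 led that list and went from 1606 to 392.7 CPM, and PDGFRB went from 69.0 to 0.514 CPM, while DCN, LUM and THY1 had at most 6 reads in any library. The 6 endothelial markers summed to 66.2 and 61.7 CPM in Cal51 and to 140.5 and 147.0 CPM in Cal51R, with 2 risen and 1 fallen of 4 tested. PECAM1, the most abundant of them, was 2.66-fold higher in Cal51R, CDH5 rose and TEK fell, and KDR and CLDN5 had at most 4 reads. The 8 leukocyte markers summed to 17.1 and 17.5 CPM in Cal51 and to 7.11 and 8.77 CPM in Cal51R, with 3 risen and 2 fallen of 5 tested. CD68, the most abundant, went from 11.4 to 1.69 CPM, and CD14 also fell. ITGAM rose from 2.74 to 4.83 CPM, and PTPRC and LYZ rose with at most 12 reads in any library. CD3E and NKG7 were too low to be tested. What part these shifts have in the heat shock protein results was not tested.

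HSPA8 encodes HSC70, the HSP70 that cells make at all times. It lies on chromosome 11 (chr11:123057489-123062462, minus strand, GRCh38.p14) and hosts small nucleolar RNAs in its introns. Cal51 replicates 1 and 2 held 70223 and 60191 of its reads, and the corresponding Cal51R replicates held 30130 and 32446. Both Cal51R libraries were far below both Cal51 libraries, and the libraries of each line differed little. The level averaged 3480 ± 32.3 CPM in Cal51, against 1551 ± 65.3 CPM in Cal51R (SD, n = 2), which is 2.24-fold lower in Cal51R. The log2 fold change was -1.17 with SE 0.08, and edgeR's adjusted p was 1.18e-09. By TPM, transcripts per 1000000 with allowance for gene length, HSPA8 ranked 16 and 20 of all genes in the Cal51 libraries and 62 and 58 in those of Cal51R.

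HSPH1 encodes HSP105, the HSP110 protein that acts as nucleotide exchange factor for HSPA8 (chr13:31134973-31162388, minus strand). Its reads numbered 5367 and 4558 in Cal51, against 1947 and 2579 in Cal51R. Both Cal51R libraries were below both Cal51 libraries, with some spread between the Cal51R libraries, at 111.4 ± 11.6 CPM against 264.7 ± 0.732 CPM in Cal51 (SD, n = 2). This was the largest fold change among the 10 genes, a 2.37-fold decrease (log2 fold change -1.25 with SE 0.08, adjusted p = 8.54e-10 by edgeR). The TPM of HSPA8 was 19.3 and 19.5 times that of HSPH1 in the Cal51 libraries and 22.5 and 18.3 times in the Cal51R libraries. That ratio overlapped between the lines (two-sided exact permutation p = 1).

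DNAJB1 encodes HSP40, the J-domain protein that delivers clients to HSP70 and stimulates its ATPase (chr19:14514769-14560391, minus strand). Counts of 5367 and 4646 reads were given for Cal51 against 3743 and 4154 for Cal51R, and in CPM the lines did not overlap. The level was 267.3 ± 4.35 CPM in Cal51 against 195.6 ± 4.07 CPM in Cal51R (SD, n = 2). The decrease was 1.37-fold (log2 fold change -0.45 with an SE of 0.07, edgeR adjusted p = 3.09e-05), the smallest among the 8 genes that fell. The HSPA8 TPM was 13.0 and 12.8 times that of DNAJB1 in the Cal51 libraries, and 7.99 and 7.74 times in those of Cal51R. The ratio of the main HSP70 to this J-domain protein was thus lower in both Cal51R libraries, with a two-sided exact permutation p of 0.333, the smallest that 2 against 2 libraries allow. DNAJB1 overlaps TECR on the opposite strand in the GENCODE annotation, and whether counting used the strand is not stated in the labels.

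**Figure D2:**
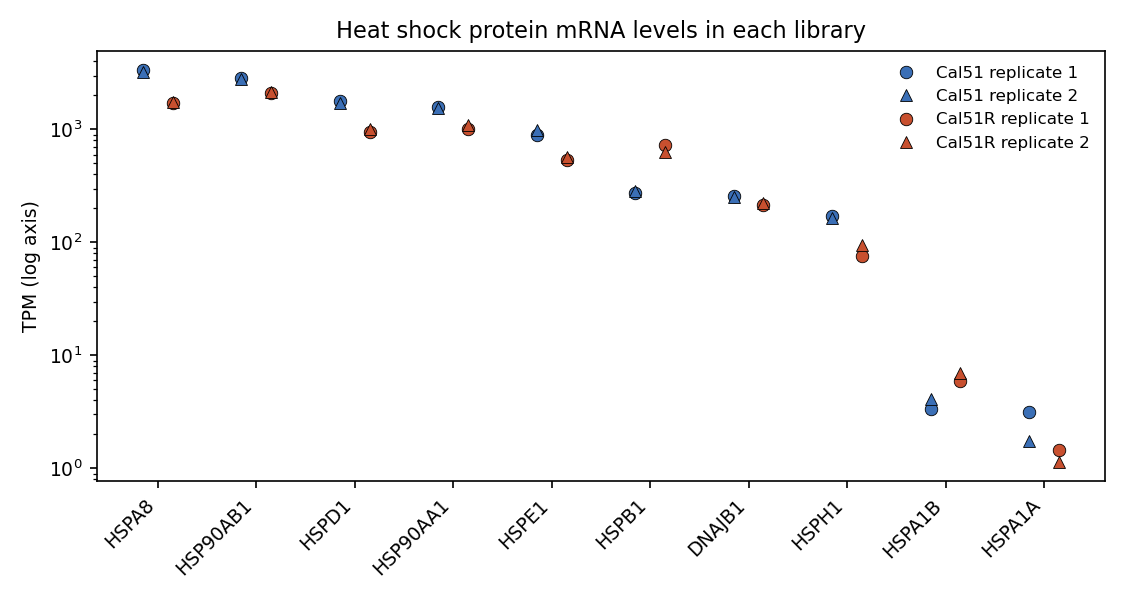
Deposited TPM (log axis) of the 10 heat shock protein genes in each of the 4 libraries, 1 point per library, with the lines in different colours. HSPA8 runs from 3337 and 3208 TPM in Cal51 to 1719 and 1738 TPM in Cal51R, HSPB1 moves the other way from 274.4 and 283.6 to 734.3 and 627.9 TPM, and HSPA1A and HSPA1B lie between 1.15 and 7.06 TPM.

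Both cytosolic HSP90 genes were lower in Cal51R. HSP90AA1, the stress-inducible form (chr14:102080742-102139749, minus strand), took 48051 and 41498 reads in the parent line against 25509 and 29298 in Cal51R. Its level was 2390 ± 34.9 CPM in Cal51 against 1356 ± 4.71 CPM in Cal51R (SD, n = 2), 1.76-fold lower (log2 fold change -0.82, SE 0.07, edgeR adjusted p = 6.15e-08). HSP90AB1, the form that is made constantly (chr6:44246194-44253883, plus strand), took 68418 and 59834 reads in the parent line against 41760 and 45702 in Cal51R. The lines did not overlap for either gene. HSP90AB1 stood at 3425 ± 80.5 CPM in Cal51 against 2167 ± 66.5 CPM in Cal51R (SD, n = 2), 1.58-fold lower (log2 fold change -0.66, SE 0.08, edgeR adjusted p = 1.08e-06).

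HSP90AB1 was the more abundant transcript of the pair in every library. HSP90AA1 reached 0.554 and 0.547 of its TPM in the Cal51 libraries and 0.481 and 0.505 in the Cal51R libraries. The share was lower in both Cal51R libraries, with a two-sided exact permutation p of 0.333, again the smallest possible here. In Cal51R HSP90AB1, at 2105 and 2163 TPM, stood above HSPA8, at 1719 and 1738 TPM, whereas in Cal51 the order was the reverse, with HSPA8 at 3337 and 3208 TPM and HSP90AB1 at 2873 and 2818 TPM. The HSP90AA1 gene overlaps WDR20 on the opposite strand in the annotation.

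HSPD1 and HSPE1 encode HSP60 and HSP10, the ring and lid of the mitochondrial chaperonin, and lie head to head on chromosome 2 (chr2:197486584-197500274, minus strand, and chr2:197500379-197503449, plus strand). The upstream start of HSPD1 and the start of HSPE1 are 105 bases apart. HSPD1 was counted at 37053 and 31820 reads in Cal51, against 16650 and 18641 in Cal51R. HSPE1 was counted at 4268 and 4216 reads in Cal51, against 2166 and 2456 in Cal51R. For both genes the Cal51R libraries were far below the Cal51 libraries. HSPD1 went from 1838 ± 19.5 to 873.9 ± 12.7 CPM (SD, n = 2 each), 0.475 times the Cal51 level (log2 fold change -1.07, SE 0.07, edgeR adjusted p = 2e-09). HSPE1 went from 227.7 ± 24.9 to 114.4 ± 0.641 CPM (SD, n = 2 each), 1.99-fold lower (log2 fold change -0.99 with SE 0.08, edgeR adjusted p = 1.82e-08). The TPM of HSPD1 was 2.01 and 1.75 times that of HSPE1 in the Cal51 libraries and 1.78 and 1.75 times in the Cal51R libraries. This ratio overlapped between the lines (two-sided exact permutation p = 1).

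The 2 genes overlap in the annotation, and HSPE1 shares exons with HSPE1-MOB4, a read-through transcript. The table gives HSPE1-MOB4 its own estimated counts of 25.32 and 124.22 in the Cal51 libraries and 17.48 and 0 in the Cal51R libraries, small beside those of HSPE1. GENCODE lists 17 pseudogenes of HSPD1, 26 of HSPE1 and 17 of HSPA8. By RefSeq only 49 of the 17215 deposited genes are pseudogenes. Reads that fit a gene and such a copy equally well could have been divided between them or counted for the gene, and which was done is not stated. Within 500 kb of HSPD1 and HSPE1 lie 7 other tested genes, of which 6 fell and 0 rose in Cal51R, with a median log2 fold change of -0.70, where 35.5% of all tested genes fell and 35.3% rose. They include HSPE1-MOB4, whose reads lie mostly in Cal51 replicate 2, and MOB4. Without that pair 4 of 5 fell and 0 rose, with a median of -0.28. Around HSPA8 3 of 4 tested neighbours rose, and around DNAJB1 9 of 18 rose and 6 fell. HSPB1 had 14 such neighbours, of which 3 rose and 7 fell, so that its increase was not shared by most of them. Around HSPH1 both tested neighbours fell, and around HSPA1A and HSPA1B 17 of 50 rose and 12 fell. Near HSP90AA1 4 of 9 rose and 2 fell, and near HSP90AB1 2 of 12 rose and 5 fell.

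HSPB1 encodes HSP27, a small heat shock protein that forms large oligomers, holds unfolded clients and binds actin filaments. It was the only 1 of the 10 genes with an at least 2-fold increase. Its reads numbered 1898 and 1749 in Cal51, against 4232 and 3854 in Cal51R (chr7:76302673-76304292, plus strand). Both Cal51R libraries were well above both Cal51 libraries, although the Cal51R libraries differed more from each other, at 201.6 ± 32.2 CPM against 97.6 ± 5.90 CPM in Cal51 (SD, n = 2). The increase was 2.07-fold, with a 95% interval of 1.79 to 2.38 (log2 fold change 1.05, SE 0.10, edgeR adjusted p = 6.33e-08). In TPM rank HSPB1 moved from 607 and 576 in the Cal51 libraries to 153 and 177 in those of Cal51R. Its TPM was 0.0822 and 0.0884 of that of HSPA8 in Cal51 and 0.427 and 0.361 in Cal51R.

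HSPA1A and HSPA1B encode HSP72, the HSP70 that is strongly induced by heat. They lie in the major histocompatibility complex region of chromosome 6 (chr6:31815543-31817942 and chr6:31827738-31830254, both plus strand). Their longest open reading frames, 1926 bases each, differ at 4 bases, and 69.9% of all 100-base stretches of the HSPA1A transcript recur unchanged in HSPA1B. The split of reads between the pair is therefore uncertain. HSPA1A was given 70 and 35 reads in Cal51, against 27 and 23 in Cal51R. HSPA1B was given 78 and 86 reads in Cal51, against 116 and 147 in Cal51R. In CPM neither gene overlapped between the lines, but the Cal51 libraries differed 2-fold in HSPA1A reads. HSPA1A went from 2.74 ± 0.996 to 1.25 ± 0.258 CPM, a 2.23-fold decrease (SD, n = 2; log2 fold change -1.16, SE 0.31, edgeR adjusted p = 0.00348). HSPA1B went from 4.42 ± 0.824 to 6.49 ± 0.473 CPM, a 1.48-fold increase (SD, n = 2; log2 fold change 0.56, SE 0.18, edgeR adjusted p = 0.0115).

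Neither of these calls held throughout. Without Cal51 replicate 1 the log2 fold change was -0.72 for HSPA1A (edgeR adjusted p = 0.134) and 0.37 for HSPA1B (edgeR adjusted p = 0.168), and with DESeq2 HSPA1B had an adjusted p of 0.128. Counted together, the pair had 149 and 121 reads in Cal51, against 143 and 170 in Cal51R. In CPM the sum was 7.34 and 7.04 in Cal51 against 7.58 and 7.89 in Cal51R, slightly higher in both Cal51R libraries. The log2 fold change of the sum was 0.11 with SE 0.15, a 95% interval of -0.20 to 0.41, and an edgeR adjusted p of 0.53. HSPA1B made up 51.4% and 70.2% of the pair's TPM in the Cal51 libraries and 80.3% and 86.0% in those of Cal51R. Even with the pair summed, HSPA8 was 513.4 and 546.5 times as abundant by TPM in Cal51, and 233.2 and 211.6 times in Cal51R. The third heat-inducible HSP70 gene, HSPA6, had 3 and 2 reads in Cal51, against 8 and 11 in Cal51R, and was too low to be tested.

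**Figure D3:**
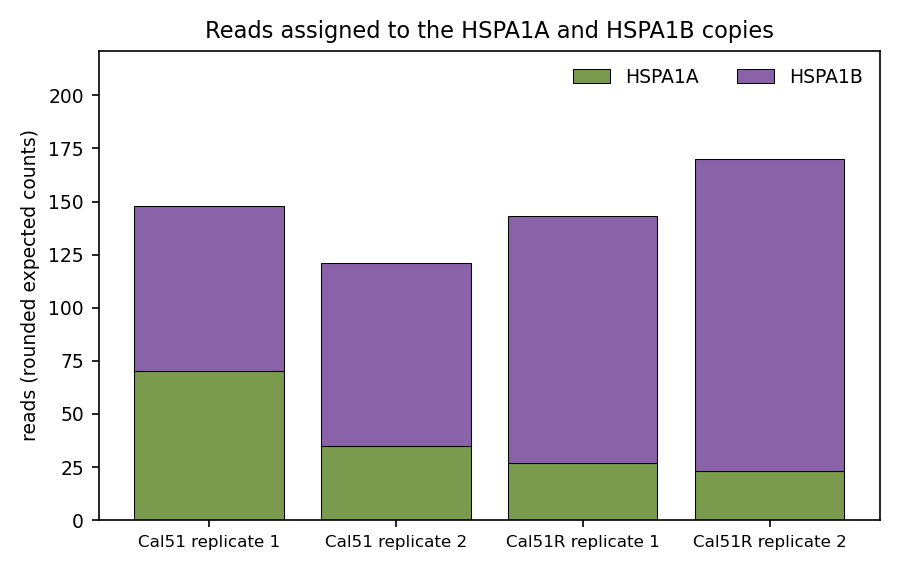
Estimated reads of HSPA1A and HSPA1B in each of the 4 libraries, alone and summed. HSPA1A has the fewest reads in Cal51R, at 27 and 23, and HSPA1B the most, at 116 and 147, while the sum overlaps between the lines.

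In Cal51 the order by TPM was HSPA8, HSP90AB1, HSPD1, HSP90AA1, HSPE1, HSPB1, DNAJB1, HSPH1, HSPA1B and HSPA1A, and no neighbours in that order overlapped. In Cal51R it was HSP90AB1, HSPA8, HSP90AA1, HSPD1, HSPB1, HSPE1, DNAJB1, HSPH1, HSPA1B and HSPA1A. There HSP90AA1, at 1013 and 1093 TPM, and HSPD1, at 957.4 and 1006 TPM, were separated by less than the gap between libraries of the same line. Summed, the 10 genes took 1.12% and 1.10% of all TPM in the Cal51 libraries and 0.737% and 0.753% in those of Cal51R. The Cal51R sum was 0.673 of the Cal51 sum (two-sided exact permutation p = 0.333, the smallest possible). TMM-scaled CPM gave a ratio of 0.548, since the sum is then weighted by gene length and scaled to the typical gene.

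Promoters were read from the RefSeq windows of 250 bases before to 50 bases after each start (GRCh38.p14), of which the 10 genes have 16. A heat shock element of 3 units was searched as GAANNTTCNNGAA or TTCNNGAANNTTC, which covers both strands, and one of 2 units as GAANNTTC or TTCNNGAA, which every 3-unit match also holds. The 3-unit element was found in windows of 4 of the 10 genes, HSP90AA1, HSP90AB1, HSPA8 and HSPD1. By window that was 4 of 16, against 0.49% of all 35116 windows. The 2-unit element was found in 8 of the 10 genes, all but HSPH1 and HSPE1. By window that was 9 of 16, against 13.5% of all windows. A match is a description of letters, and whether HSF1 binds there in these cells was not tested. The element sites of the heat shock genes that follow are each 30 bases long, 5′ to 3′ on the strand of the gene, with the GAA and TTC units in capitals. They are shown because the runs of 3 or 4 units all lie in genes that fell, as 8 of the 10 genes did. Beside them stand 2-unit sites of DNAJB1, which fell, and of the HSPA1A and HSPA1B pair.
HSPA8, chr11:123062345-123062374, minus strand: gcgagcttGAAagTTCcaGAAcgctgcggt
HSPA8, chr11:123062170-123062199, minus strand: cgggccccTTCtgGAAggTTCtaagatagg
HSP90AA1, chr14:102087111-102087140, minus strand: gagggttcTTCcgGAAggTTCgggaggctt
HSPD1, chr2:197500061-197500090, minus strand: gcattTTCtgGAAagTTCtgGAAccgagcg
DNAJB1, chr19:14518456-14518485, minus strand: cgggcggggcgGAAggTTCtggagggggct
DNAJB1, chr19:14518426-14518455, minus strand: ggcgggctctgGAAgcTTCcgccggacggg
HSPA1A, chr6:31815426-31815455, plus strand: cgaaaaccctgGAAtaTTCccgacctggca
HSPA1B, chr6:31827622-31827651, plus strand: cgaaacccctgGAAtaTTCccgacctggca

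Counted in bases from the transcription start of their window, the HSPA8 elements lie from -230 to -218 and from -55 to -43. That of HSP90AA1 lies from -88 to -76. The elements shown for HSP90AA1, HSP90AB1, HSPD1 and DNAJB1 lie before starts inside the gene span, not before its outer end. HSPD1 has the longest run, 4 units, which end 294 bases from the start of HSPE1 on the other strand. HSPE1 itself has no match within its own window. The HSPA1A and HSPA1B sites carry the same 2 units, and over the 250 bases before their starts the aligned sequences were identical at 235 positions, with 14 mismatches and 2 gap bases. Both also have a TATA box, searched as TATAAA or TTTATA on both strands, which 11.5% of all windows hold. HSPA1A was lower and HSPA1B higher in Cal51R, with the doubt about their read split given above. Longer stretches are shown for 3 genes, HSPH1 with the largest decrease, HSPB1 with the largest increase, and HSP90AB1 with a pair of complete 3-unit elements. The capitals again mark the units, and each stretch holds no annotated exon.
HSPH1, chr13:31162389-31162638, minus strand, 250 bases: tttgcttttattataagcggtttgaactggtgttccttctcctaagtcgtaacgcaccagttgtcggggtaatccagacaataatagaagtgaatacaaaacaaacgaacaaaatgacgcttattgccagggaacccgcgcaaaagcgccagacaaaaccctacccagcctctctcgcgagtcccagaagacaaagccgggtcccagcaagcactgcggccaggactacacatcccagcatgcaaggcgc
HSPB1, chr7:76302423-76302543, plus strand, 121 bases: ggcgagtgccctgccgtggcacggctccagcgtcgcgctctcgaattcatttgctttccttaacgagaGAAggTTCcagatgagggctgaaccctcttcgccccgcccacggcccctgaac
HSP90AB1, chr6:44247693-44247865, plus strand, 173 bases: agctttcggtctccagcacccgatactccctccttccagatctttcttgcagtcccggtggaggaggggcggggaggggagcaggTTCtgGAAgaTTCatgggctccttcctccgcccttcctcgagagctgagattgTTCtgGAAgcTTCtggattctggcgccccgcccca

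The HSPH1 window has no match, and HSPH1 fell most, while HSPB1, with 2 units, rose. The 4 genes with a 3-unit element all fell, as 8 of the 10 genes did. Their log2 fold changes ran from -0.66 for HSP90AB1 to -1.17 for HSPA8. Beyond the 10 genes, 49 tested genes had a 3-unit element in a window, of which 21 rose and 12 fell, or 42.9% and 24.5%, against 35.3% and 35.5% of all tested genes. Their median log2 fold change was 0.21. This set was chosen after its values were seen and was given no test.

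**Figure D4:**
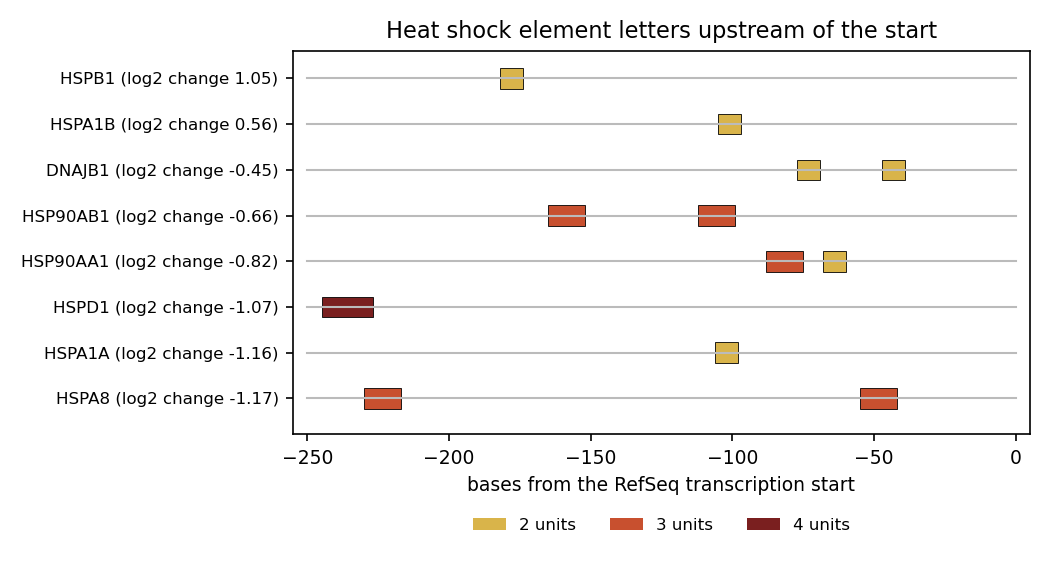
Position of heat shock elements relative to the transcription start of each promoter window (bases, 0 at the start) in the 10 genes. The number of GAA or TTC units is marked. Matches appear in windows of 8 genes, and 4 units stand together only in HSPD1.

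Other genes of the chaperone network were taken from 9 lists chosen by textbook role, again with earlier results known. Some genes are shared between lists, among them CRYAB, HSPA4L, STIP1 and GRPEL1, so the counts of single lists overlap. With each gene counted once, the lists held 118 genes without the 10, of which 115 were in the table and 107 were tested. Of these 20 rose, 55 fell and 32 did not pass, with a median log2 fold change of -0.22 against 0.02 for all tested genes, where 35.3% rose and 35.5% fell. With library totals in place of TMM scaling, 34 rose and 34 fell, where 46.8% of all tested genes rose and 25.5% fell. Of the 10 heat shock proteins themselves, 8 fell under either scaling.

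HSF1, the master regulator of the heat shock response, was counted at 1929 and 1729 reads in Cal51, and at 1618 and 1555 in Cal51R, and in CPM the lines did not overlap. Its level was 97.8 ± 4.00 and 79.0 ± 9.65 CPM (SD, n = 2 each), 1.24-fold lower in Cal51R (log2 fold change -0.31 with SE 0.09, edgeR adjusted p = 0.00509). The call was lost with library totals (log2 fold change -0.11, edgeR adjusted p = 0.254), in FPKM (limma adjusted p = 0.365) and with Cal51 replicate 2 left out (edgeR adjusted p = 0.0516). Among 14 tested heat shock factors and their regulators, 4 rose, 7 fell and 3 did not pass, with a median of -0.25, and with library totals 5 rose and 3 fell. HSF4, a factor best known in the lens, rose from 1.10 to 3.61 CPM, and the acetyltransferase gene EP300 rose from 127.9 to 183.2 CPM. HSBP1L1, related to the HSF1-binding protein HSBP1, fell from 20.3 to 5.34 CPM, and the HSP90-binding immunophilin gene FKBP4 fell from 341.4 to 212.8 CPM.

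Of 18 tested heat-inducible genes known as HSF1 targets, without the 10, 1 rose and 10 fell, with a median log2 fold change of -0.54. With library totals 5 rose and 9 fell. CRYAB, the small heat shock protein αB-crystallin, rose from 3.14 to 5.90 CPM (log2 fold change 0.91 with SE 0.19, and adjusted p = 0.000399 by edgeR). HSPA4L, an HSP110 protein, fell from 136.5 to 76.1 CPM, that is by a log2 fold change of -0.84 with SE 0.07 and an edgeR adjusted p of 4.11e-08. STIP1, the adaptor HOP that joins HSP70 to HSP90, fell from 618.7 to 342.1 CPM, with a log2 fold change of -0.86, SE 0.08 and an edgeR adjusted p of 4.92e-08.

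Of 9 other tested HSP70 and HSP110 genes, 1 rose, 5 fell and 3 did not pass, with a median of -0.34, and with library totals 2 rose and 4 fell. HSPA4, which like HSPH1 exchanges nucleotide on HSP70, fell from 444.1 ± 0.199 to 260.1 ± 1.33 CPM (SD, n = 2 each; log2 fold change -0.77). HSPA12A, a distant HSP70 relative, rose from 16.4 to 21.9 CPM, a call lost without Cal51 replicate 2 (edgeR adjusted p = 0.158). Of 12 other class A and B J-domain genes, 7 rose and 3 fell, with a median of 0.29, the opposite sign to that of DNAJB1, and with library totals 9 rose and 1 fell. DNAJA1, an abundant J-domain partner of HSPA8, fell from 391.0 to 256.0 CPM, and DNAJB14, a J-domain protein of the endoplasmic reticulum membrane, rose from 58.7 to 97.4 CPM. DNAJB13, known from sperm and cilia, rose from 3.22 to 9.19 CPM. DNAJA2 fell from 142.1 to 110.4 CPM, a call lost with library totals (edgeR adjusted p = 0.0596) and in FPKM (limma adjusted p = 0.0564). Of 11 nucleotide exchange and release factors, 0 rose and 7 fell, with a median of -0.36, and with library totals 3 rose and 5 fell. BAG1, which releases clients from HSP70, fell from 66.3 to 37.2 CPM, and GRPEL1, the exchange factor of the mitochondrial HSP70, fell from 126.8 ± 7.80 to 43.3 ± 0.992 CPM (SD, n = 2 each; log2 fold change -1.55).

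Most of the other tested small heat shock proteins moved in the direction of HSPB1. Of 4 other tested genes of that family, 3 rose, 0 fell and 1 did not pass, with a median of 0.92, at levels far below that of HSPB1. The gene that did not pass was lower in Cal51R, by a log2 fold change of -0.96 (edgeR adjusted p = 0.0637). HSPB2 rose from 0.591 to 3.74 CPM and HSPB7 from 4.50 to 8.58 CPM, both best known in muscle, and CRYAB is given above. Their counts, of 3 rises in 4 genes, were also obtained with library totals.

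Of 23 tested HSP90 co-chaperones, 3 rose, 16 fell and 4 did not pass, with a median of -0.29, beside falls of both HSP90 genes. With library totals 3 rose and 10 fell. PPP5C, the phosphatase that docks on HSP90, fell from 115.5 to 64.2 CPM, that is by a log2 fold change of -0.85 with SE 0.08 (edgeR adjusted p = 6.03e-08). CDC37L1, a relative of the kinase co-chaperone CDC37, rose from 16.1 to 23.6 CPM.

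The cytosolic chaperonin TRiC and its delivery complex prefoldin, the counterpart of HSPD1 and HSPE1 in the cytosol, had 17 tested genes, of which 0 rose, 11 fell and 6 did not pass, with a median of -0.51. With library totals 3 rose and 8 fell. CCT2, a TRiC ring subunit, fell from 359.1 ± 8.74 to 118.3 ± 5.59 CPM (SD, n = 2 each; log2 fold change -1.60, SE 0.07, edgeR adjusted p = 1.25e-11). PFDN2, a prefoldin subunit, fell from 68.3 to 32.1 CPM, that is by a log2 fold change of -1.09 with SE 0.09 (edgeR adjusted p = 1.03e-08).

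Other mitochondrial chaperones and quality proteases were more mixed than HSPD1 and HSPE1. Of the 16 that could be tested, 3 rose and 7 fell while 6 did not pass, with a median of -0.15. Across all tested genes 35.3% rose and 35.5% fell, with a median of 0.02. With library totals 46.8% of all tested genes rose and 25.5% fell, with a median of 0.21. In this list the median was then 0.04, and 5 rose and 3 fell. Without Cal51 replicate 2, 0 rose and 4 fell, and without Cal51 replicate 1 or with a replicate block 1 rose. AFG3L2, a subunit of the matrix AAA protease, fell from 202.3 to 107.4 CPM, that is by a log2 fold change of -0.91 with SE 0.07 (edgeR adjusted p = 9.45e-09). HSPA9, the mitochondrial HSP70, went from 980.7 to 775.9 CPM with a log2 fold change of -0.34, SE 0.07 and an edgeR adjusted p of 0.000566. By TPM its libraries overlapped between the lines, at 483.9 and 454.6 in Cal51 against 424.2 and 455.7 in Cal51R. How its call fared under the alternatives is not reported here. HSPA9 was named here after its values were seen. HSCB, a J-domain protein for iron-sulfur clusters, rose from 8.43 to 11.6 CPM, a call lost with DESeq2, at an adjusted p of 0.0878, and when Cal51 replicate 2 was left out, at an edgeR adjusted p of 0.0558. YME1L1, an inner membrane protease, rose from 236.5 to 277.8 CPM, a call lost with a replicate block (edgeR adjusted p = 0.0597) and when Cal51 replicate 1 or 2 was left out (0.0642 and 0.172).

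Among all tested genes, those whose centred log2 CPM over the 4 libraries lay closest to that of HSPH1 were LLPH, LACTB and LMAN1. Their root mean square differences from HSPH1 were 0.00428, 0.0208 and 0.0219 on that scale. Their log2 fold changes were -1.25, -1.26 and -1.24, against -1.25 for HSPH1. With 4 libraries in 2 lines this likeness describes little more than the fold change and the small spread within a line.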

How the data were processed

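Polyadenylated RNA of Cal51 and Cal51R, 2 libraries each, was sequenced as DNA nanoballs, per the labels' protocols. The tools RSEM 1.2.8, Bowtie2 2.2.5, HISAT2 2.1.0 and DESeq and the build hg38 are listed, without roles, in the submitters' processing notes. Not given in the sources used here are the annotation, molecular identifiers and strandedness. Read counts, FPKM and TPM per gene and library were deposited by the authors, per the file headers. From the values the deposited counts are expected counts, since 27.0% to 31.8% of them in a library were whole, and they were rounded here. The deposited FPKM served only in alternatives. The authors' TPM served for levels between genes, and for the sums, ratios and ranks compared between the lines. No column of per-sample values was left unused.

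Fold changes (Cal51R over Cal51) came from edgeR 4.0.16's quasi-likelihood test in R 4.3.3 with TMM scaling, filterByExpr (minimum count 10) and 1 model term, the line. Of 17215 genes 13674 were tested and 3541 left out. P-values were adjusted by Benjamini-Hochberg over all tested genes, with a threshold of 0.05. CPM are counts over TMM-scaled library sizes. The coefficient of variation between libraries of a line was 5.83%. Intervals and limits cover counting error or the spread of these libraries only. The libraries of a line differed by more than sampling noise (chi-square per gene 4.38 and 6.83). Single ratios were tested by exact permutation over libraries. Alternatives were RLE factors, library totals, DESeq2 1.42.0, no filter, 5 CPM in 2 libraries, limma 3.58.1 on log2(FPKM + 1) and log2(FPKM + 0.1) for genes with 1 FPKM in 2 libraries, a replicate block, HSPA1A and HSPA1B summed, and each library left out. The pseudocount understates changes at low levels. The edgeR test function was also run on simulated data with known changes.

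The 10 genes and all lists were chosen with earlier results of these data known. From each list the 2 risen and 2 fallen genes of smallest p, where there were as many, were named, together with HSF1, if they averaged at least 1 CPM. HSPA6, which was below that level, HSPA9 and several cell type markers were named outside this rule. Some genes of the lists are not reported here. Gene positions and promoters are RefSeq's for GRCh38.p14, matched for 99.6% of genes and all 10 heat shock genes. Transcripts and overlaps are GENCODE's. Replicate numbers were not taken as pairs: deviations of same-numbered libraries from their line's mean correlated at -0.156 over genes.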

Additional observations from a re-analysis of the deposited data

How the results depend on the processing

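The direction of all 10 heat shock proteins held under every alternative that kept them (10 to 14 each). For the 8 other than HSPA1A and HSPA1B, all 14 alternatives also kept the call. Of the 10 genes, 1 rose with DESeq2 and with HSPA1A and HSPA1B summed, and 1 to 2 when a library was left out. HSPA1A fell below the filters of 5 CPM and of FPKM, where 7 genes fell. The summed level in Cal51R was 0.548 of that in Cal51 by CPM and 0.725 by TPM without HSP90AB1 and HSPA8. In the network 34 genes rose and 34 fell with library totals, and 33 rose and 34 fell on log2(FPKM + 1) and on log2(FPKM + 0.1). Among the 12011 genes tested under those FPKM settings 3216 and 3201 fell, or 26.8% and 26.7%, while 46.9% and 46.6% rose. In the main fit 4855 of 13674 genes fell, or 35.5%, and 35.3% rose. With a replicate block 2 of the 10 genes rose and 8 fell, 18 network genes rose and 49 fell, and 4458 of all genes rose and 4447 fell. With crossed pairs, an alternative chosen after seeing the data, the counts were 2 and 8, 23 and 61, and 5321 and 5336. With 2 libraries a line, ratios could not reach an exact p under 0.333, and HSPA1A, at 23 to 70 reads, was the most limited by depth.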
